A study of Mus musculus with 12 samples.

Results

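The genes described here encode the vitamin D receptor, Vdr, the partners with which it forms dimers (Rxra, Rxrb and Rxrg), 4 coactivators (Ncoa1, Ncoa2, Ncoa3 and Med1) and the corepressor Ncor1. They were chosen by their role, as all array probes whose accession maps to 1 of these 9 symbols, which gave 19 of 55681 probes. Of the 19 probes, 18 passed the filter on low signal, and all 9 genes were among the 24229 tested. RNA came from colon organoids, epithelial crypts grown in Matrigel as a 3D culture enriched in stem cells. They were derived from 3 VDR KO (knockout) and 3 wt (wild-type) C57BL/6 mice. Organoids of every mouse received both treatments, calcitriol (the active hormone of vitamin D) at 100 nM and its vehicle, EtOH. This made 4 groups of 3 arrays: knockout with calcitriol, knockout with vehicle, wild type with calcitriol and wild type with vehicle. Mice of replicates 1 and 3 were labelled 2 months old and those of replicate 2 were labelled 3 months old, in both genotypes. The knockout allele is not described further in the labels, and neither is any change that both genotypes share. The design text and the sample descriptions give different durations of treatment.

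The vitamin D receptor is a nuclear receptor that binds DNA as a heterodimer with a retinoid X receptor (RXR), typically at pairs of half-sites arranged as a direct repeat. Without hormone the dimer can hold corepressors such as Ncor1, which recruit histone deacetylases. Calcitriol changes the shape of the receptor so that coactivators of the p160 family (Ncoa1, Ncoa2 and Ncoa3) and the Mediator complex, through Med1, are recruited. In the gut epithelium this receptor is known for its control of calcium uptake and of the breakdown of calcitriol itself.

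A level below is the log2 processed signal of a probe minus the 75th percentile of its array, and a difference is between group means of such levels. The brightest probe stands for a gene, and levels of different probes are not compared. The 75th percentile of the signal was 490.6 to 679.9 per array. Of all probes 72.5% were well above background on the vehicle array of wild-type mouse 2, against 54.1% to 65.8% on the other 11 arrays. All 12 epithelial markers were above background on all 12 arrays, with a summed linear signal of 1702 to 2171 times the 75th percentile. The same sum was 19.1 to 35.0 for 12 immune markers, of which 5 were above background on all 12 arrays. By group it was 19.8 to 35.0 in knockout with calcitriol and 19.1 to 31.9 with vehicle, and 24.4 to 28.7 in wild type with calcitriol and 19.2 to 31.6 with vehicle. It was 0.42 to 0.90 for 10 fibroblast markers, with Pdgfra and Lum above background on no array. For 10 endothelial and neural markers it was 6.79 to 20.2, with Tek and S100b among those above background on none. The arrays lay on 3 slides of 7, 3 and 2. The largest held all 3 wild-type calcitriol arrays and the calcitriol arrays of knockout mice 1 and 2. It also held the vehicle array of mouse 3 of each genotype. The slide of 3 held the vehicle arrays of wild-type mice 1 and 2 and the calcitriol array of knockout mouse 3. The slide of 2 held only the vehicle arrays of knockout mice 1 and 2. Treatment is thus unevenly spread over slides, and so is genotype among the vehicle arrays.

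Vdr was the member that differed most between genotypes. It lies on chromosome 15. The 250 bases before its start in RefSeq (GRCm38.p6, chr15:97908297-97908546, minus strand, printed 5′ to 3′) are shown because the levels of this gene carry the clearest difference. Capitals mark receptor half-sites and GC boxes.
Vdr: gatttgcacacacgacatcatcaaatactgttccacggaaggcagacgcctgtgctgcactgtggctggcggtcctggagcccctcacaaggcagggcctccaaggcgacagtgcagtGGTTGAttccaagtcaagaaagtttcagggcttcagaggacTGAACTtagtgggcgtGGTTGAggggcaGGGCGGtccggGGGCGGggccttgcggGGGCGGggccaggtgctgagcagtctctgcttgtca
The half-sites searched were AGGTCA or AGGTGA or AGTTCA or AGTTGA or GGGTCA or GGGTGA or GGTTCA or GGTTGA, and the GC box was GGGCGG, each on both strands. The Vdr window held 3 half-sites, 75, 91 and 132 bases before the start, and 3 GC boxes at 36, 52 and 63 bases, none of them overlapping. No pair of half-sites stood as a direct repeat with 3 bases between. Half-sites are common letters: 60.3% of 32851 RefSeq windows of this length held at least 1, and 32.7% held a GC box, and 0.222% held the direct repeat. Of the 11 windows found for 7 members, 8 held a half-site, 7 a GC box and 0 the direct repeat. Ncoa2 and Ncoa3 were not matched.

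The single Vdr probe, A_52_P334562, was well above background on all 12 arrays. Its level was -0.22, 0.04 and 0.61 in knockout with calcitriol, replicates 1, 2 and 3, and -0.10, 0.34 and 0.48 in knockout with vehicle. Wild-type levels were 1.29, 1.06 and 1.41 with calcitriol and 1.37, 1.90 and 2.22 with vehicle. The highest knockout array, at 0.61, lay below the lowest wild-type array, at 1.06. Such a separation of 6 from 6 arrays was seen for 1 of the 9 members, Vdr, against 0.4% of all genes tested. Before scaling the processed signal was 438 to 875 in knockout and 1240 to 3101 in wild type. The sources used here do not say which exons the knockout lacks or where this probe binds, so the signal left in the knockout does not check the labels. In such bulk samples fewer cells that express a gene and less RNA per cell cannot be told apart.

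**Figure D1:**
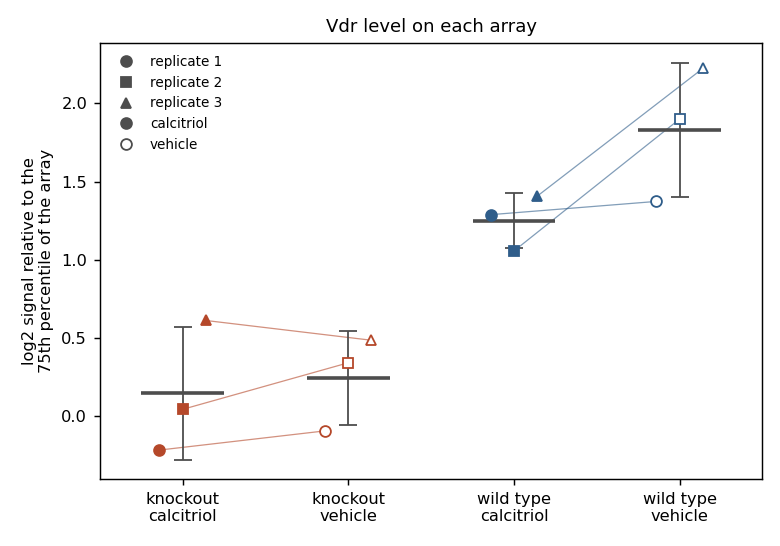
Vdr level on each of the 12 arrays (vertical axis, log2 signal relative to the 75th percentile of the array) by group, with symbols for the replicate, filled for calcitriol and open for vehicle, lines joining the 2 arrays of a mouse, and bars for mean and SD (n = 3). All 6 knockout arrays, up to 0.61, sit below all 6 wild-type arrays, from 1.06.

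In vehicle, Vdr averaged 0.24 ± 0.30 in knockout and 1.83 ± 0.43 in wild type (SD, n = 3 each). The difference was -1.59 (SE 0.26, 95% interval -2.15 to -1.02), which leaves 33.2% of the wild-type signal in the knockout. All 3 knockout mice were lower than the wild-type mouse of the same number, by -1.47, -1.56 and -1.74. Ranked by p over all genes this was 4th, but it did not pass after adjustment (limma, adjusted p = 0.328). limma called 1 gene in this comparison, 0.00413% of all tested, and 0 of the 9 members (2095 genes had an unadjusted p under 0.05). The groups did not overlap for Vdr, as in 8.41% of all genes. With the replicate number as a block limma called 1 gene, again 0.00413%, and that gene was Vdr (adjusted p = 0.0317). In a block over all 12 arrays the call was made too (0.0137), and it ended without replicate 1, 2 or 3 (0.193, 0.827 and 0.297). Knockout and wild-type vehicle arrays of mice 1 and 2 lay on different slides. With slide as a block the difference was -1.31 (limma, adjusted p = 0.478). Scaling arrays to their median gave Vdr -0.81 (adjusted p = 0.143), a setting that moved the median of all genes in this comparison to 0.73, against -0.05 in the scaling used here. Leaving out wild-type mouse 2 in vehicle, the array with most probes above background, gave -1.56.

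With calcitriol, Vdr averaged 0.15 ± 0.42 in knockout and 1.25 ± 0.18 in wild type (SD, n = 3 each). The difference was -1.11 (SE 0.26, 95% interval -1.67 to -0.54), or 46.5% of the wild-type signal, and the pairs of replicates 1, 2 and 3 differed by -1.51, -1.01 and -0.80. It did not pass (limma, adjusted p = 0.25, and 0.0561 with the replicate block). limma called 0.206% of all genes here, and 0.504% with the block, but 0 of the 9 members in either (724 genes had an unadjusted p under 0.05, and 2030 with the block). Here too the Vdr groups did not overlap, as in 7.61% of all genes. It passed in a fit of all 12 arrays with the number as a block, which was chosen after seeing the data (adjusted p = 0.00789). In that fit both treatments of a mouse count as separate samples, and the call ended without replicate 1 or 2 (adjusted p = 0.098 and 0.201).

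Averaged over both arrays of each mouse, Vdr stood at 0.19 ± 0.35 in the 3 knockout mice and at 1.54 ± 0.25 in the 3 wild-type mice (SD). The difference of -1.35 (SE 0.22) did not pass without the block (limma, adjusted p = 0.422) and passed with it (0.00409). On these means limma called 0.0165% of all genes without the block, among them no member, and 0.202% with it, among them Vdr alone of the 9. The exact 2-sided permutation test over the 6 mice gave p = 0.1, the smallest that 3 against 3 allows.

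Vdr was not called as responding to calcitriol in either genotype. In wild type its level was lower with calcitriol in all 3 mice, by -0.08, -0.84 and -0.82, and the groups overlapped, since the calcitriol array of mouse 3 (1.41) exceeded the vehicle array of mouse 1 (1.37). The mean difference was -0.58 (SE 0.26, 95% interval -1.15 to -0.02, limma adjusted p = 0.989, and 0.19 with mouse as a block). It was -0.07 under scaling to the median, where the median of all genes moved to 0.48, against -0.03 in the scaling used here. With slide as a block it was -0.54. Restricted to the largest slide, which has a single wild-type vehicle array, it was -0.97. Relative to the median of all genes it was -0.55 in both scalings. That equality is fixed by construction, since each scaling subtracts 1 constant per array. limma called 0.157% of all genes here, and 0.945% with the block, and 0 members in either.

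In knockout the 3 mice differed by -0.12, -0.30 and 0.13, with a mean of -0.10 (SE 0.26, 95% interval -0.66 to 0.47). With slide as a block it was -0.36, and restricted to the largest slide, which has a single knockout vehicle array, -0.57, and it passed in neither (limma, adjusted p = 1.0 and 0.452). limma called 0% of all genes here, with and without the block, while 1362 genes had an unadjusted p under 0.05, and 1394 with the block. The effect of calcitriol on Vdr was -0.10 ± 0.21 in knockout and -0.58 ± 0.43 in wild type (SD over 3 mice). The difference between these effects, 0.48 (SE 0.37, 95% interval -0.32 to 1.28), did not pass (limma, adjusted p = 1.0), and it was 0.19 with slide as a block. In that comparison limma called 0.0289% of all genes, and 0.235% with the block, none of them a member. In order of group means, wild type with vehicle was highest, then wild type with calcitriol, knockout with vehicle and knockout with calcitriol. The 2 knockout groups, and the 2 wild-type groups, overlapped, and neither difference passed the test.

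**Figure D2:**
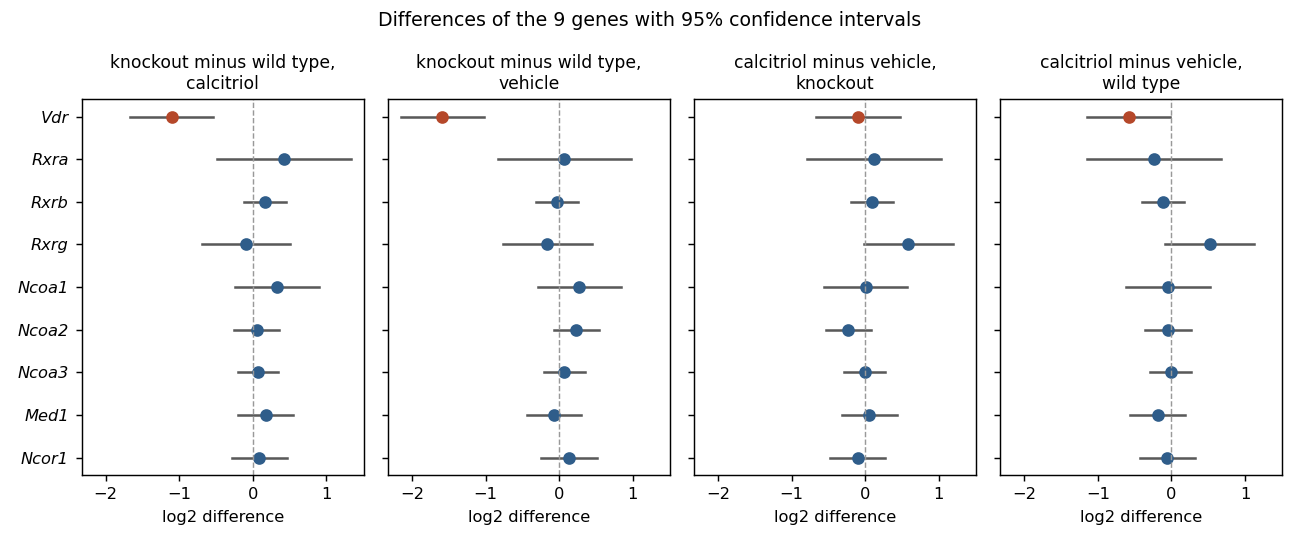
Log2 difference (horizontal axis) of each of the 9 genes in 4 comparisons, with 95% confidence intervals from limma without the replicate block (n = 3 arrays per group). Vdr lies below 0 in both genotype panels, at -1.11 with calcitriol and -1.59 with vehicle. Its interval for calcitriol against vehicle in wild type, -1.15 to -0.02, also leaves out 0, though it was not called. In this fit without the block the intervals of the other 8 genes include 0 in all 4 panels.

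The other 8 genes were not called in any of the 6 comparisons (the 4 above, the difference between the calcitriol effects and the mouse means), with or without the block. Among all 9 members the median difference between knockout and wild type was 0.07 in vehicle, against -0.05 for all genes, with 5 members above 0. With calcitriol it was 0.09, against 0.02 for all genes, with 7 above 0. For calcitriol against vehicle it was 0.00 in knockout (5 above 0) and -0.06 in wild type (1 above 0), against 0.03 and -0.03 for all genes.

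The RXR partners come next. Rxrb, the RXR most evenly expressed across tissues, had a level of 4.48, 4.22 and 4.37 in knockout with calcitriol and 4.53, 4.16 and 4.11 in knockout with vehicle. In wild type it was 4.29, 4.13 and 4.15 with calcitriol and 4.39, 4.30 and 4.21 with vehicle. The 12 arrays thus lay within 0.41 of each other. Between genotypes it differed by 0.17 (SE 0.13) with calcitriol, higher in all 3 pairs, and by -0.03 (SE 0.13) in vehicle. The 95% intervals were -0.12 to 0.46 with calcitriol and -0.32 to 0.25 in vehicle.

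Rxra, which encodes the RXR that predominates in many epithelia, was read by 2 probes that went opposite ways. The brighter probe, A_51_P307370, had levels of -0.16, -1.27 and -0.86 in knockout with calcitriol and 0.01, -1.39 and -1.25 in knockout with vehicle. In wild type it had -0.79, -1.08 and -1.70 with calcitriol and -0.38, -1.32 and -1.15 with vehicle. The mice of replicate 1 were higher than those of replicates 2 and 3 in each of the 4 groups, whatever the genotype. Knockout exceeded wild type by 0.42 (SE 0.42) with calcitriol and by 0.07 (SE 0.42) in vehicle, and neither passed (limma, adjusted p = 1.0 and 0.977). The other probe, A_55_P2074331, differed by -0.18 (SE 0.34) and -0.44 (SE 0.34) in the same comparisons. Over the 12 arrays the probes correlated at r = -0.69, although both carry the same RefSeq accession. The 95% intervals for the brighter probe were -0.48 to 1.33 with calcitriol and -0.84 to 0.98 in vehicle.

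**Figure D3:**
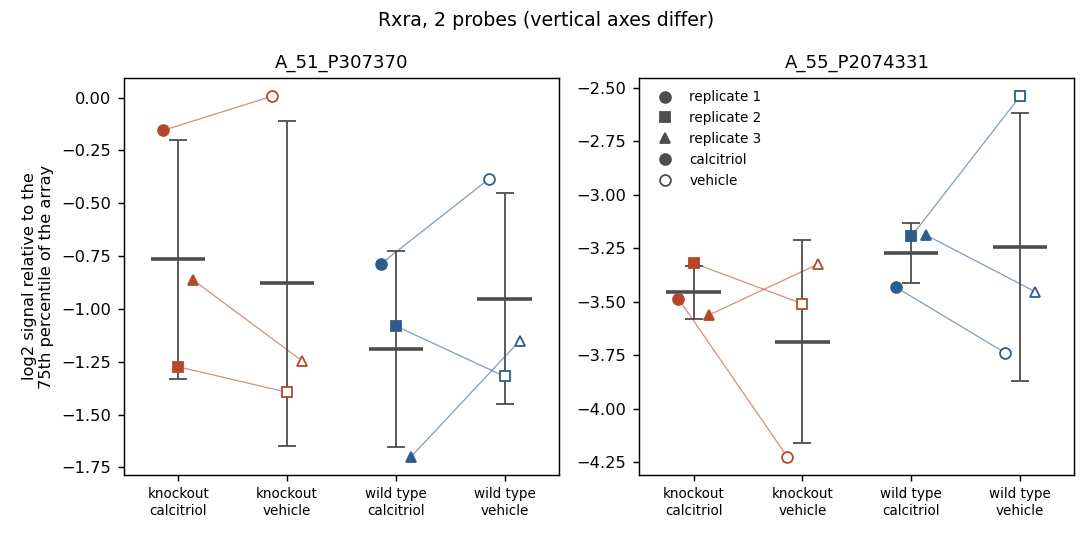
Levels of the 2 Rxra probes on the 12 arrays (vertical axes, log2 signal relative to the 75th percentile of the array, which differ between panels) by group, with symbols for the replicate, lines joining the arrays of a mouse, and bars for mean and SD (n = 3). In the left panel replicate 1 is the highest array of each group, and in the right panel it is the lowest in both vehicle groups.

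Rxrg, the RXR best known from muscle and brain, had the largest differences between calcitriol and vehicle of the members other than Vdr, and none was called. The 250 bases before its 2 RefSeq starts (GRCm38.p6, plus strand, chr1:167598112-167598361 and chr1:167618015-167618264) are shown because its differences with calcitriol, though not called, are described by array below, with half-sites in capitals. Which start the probes read is not known here.
Rxrg, first start: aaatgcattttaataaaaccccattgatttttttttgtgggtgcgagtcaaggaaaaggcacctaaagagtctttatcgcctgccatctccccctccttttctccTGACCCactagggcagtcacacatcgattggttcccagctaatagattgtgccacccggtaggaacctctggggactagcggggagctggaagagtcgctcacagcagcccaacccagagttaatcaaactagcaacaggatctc
Rxrg, second start: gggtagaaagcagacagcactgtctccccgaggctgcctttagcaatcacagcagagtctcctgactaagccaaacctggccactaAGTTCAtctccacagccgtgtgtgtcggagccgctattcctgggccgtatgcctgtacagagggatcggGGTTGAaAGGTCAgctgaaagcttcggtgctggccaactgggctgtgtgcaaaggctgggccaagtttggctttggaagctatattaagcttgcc
The first window held 1 half-site, 145 bases before the start and on the other strand. The second held 3, at 88, 95 and 164 bases, of which 2 stand next to each other with 1 base between, and neither window held a GC box.

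The bright Rxrg probe, A_55_P2044359, was above background on all 12 arrays. Its level was 2.63, 2.58 and 1.86 in knockout with calcitriol, against 1.34, 1.96 and 2.02 with vehicle. In wild type it was 2.45, 2.52 and 2.37 with calcitriol, against 1.62, 1.66 and 2.51 with vehicle. In both genotypes mice 1 and 2 were higher with calcitriol and mouse 3 was not. The difference was 0.59 in knockout (SE 0.28, 95% interval -0.01 to 1.19, limma adjusted p = 0.863) with 1.28, 0.63 and -0.15 by mouse. In wild type it was 0.52 (SE 0.28, 95% interval -0.08 to 1.12, limma adjusted p = 0.989) with 0.84, 0.86 and -0.15 by mouse. With each mouse as a block the adjusted p was 0.662 in knockout and 0.328 in wild type. Without replicate 3 in all groups, and with the block over the remaining arrays, both passed, at 0.96 in knockout (adjusted p = 0.00236) and 0.85 in wild type (0.00495). That setting, chosen after seeing the data, called 3093 genes (12.8% of all tested) in knockout and 2243 (9.26%) in wild type.

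These levels also moved with the slide. On the largest slide the 7 arrays had 2.02 to 2.63, and on the other slides the 5 arrays had 1.34 to 1.96, without overlap. This split was looked at after seeing the data. It held for 1 of the 9 members, Rxrg, and for 6.49% of all genes. In mice 1 and 2 of both genotypes calcitriol and vehicle lay on different slides, and in wild-type mouse 3 both lay on the largest, where the difference was -0.15. In knockout mouse 3 the vehicle array lay on the largest slide and the calcitriol array did not, and the difference was -0.15 there too. With slide as a block the difference was 0.61 in knockout (limma, adjusted p = 0.787) and -0.02 in wild type (1.0). The second Rxrg probe, A_51_P513311, carries the same RefSeq accession as the bright one. It was not well above background except on 1 array, that of wild-type mouse 2 in vehicle. Over the 12 arrays the 2 probes correlated at r = -0.31. The second probe thus does not back the reading of the bright one, and which of them reports Rxrg was not tested. Immune, endothelial and neural markers stood mostly on the same side for calcitriol against vehicle. In knockout 8 of 8 immune markers tested (median 0.60) and 6 of 6 endothelial and neural markers (0.45) were above 0. In wild type the counts were 5 of 8 (0.18) and 5 of 6 (0.50). Fibroblast markers were divided, with 3 of 5 above 0 in knockout (0.16) and 2 of 5 in wild type (-0.13). Of all genes, 55.2% were above 0 in knockout and 43.7% in wild type. No marker was called, and the part of these markers in the Rxrg differences was not tested. Between genotypes the bright probe differed by -0.09 (SE 0.28) with calcitriol and -0.16 (SE 0.28) in vehicle, within the spread of the mice.

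**Figure D4:**
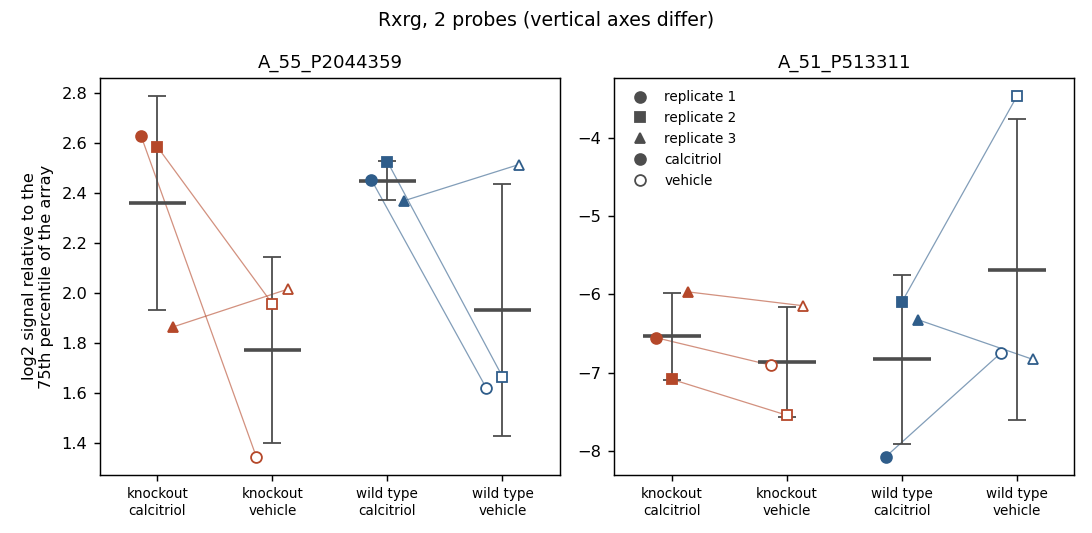
Levels of the 2 Rxrg probes on the 12 arrays (vertical axes, log2 signal relative to the 75th percentile of the array, which differ between panels) by group, with symbols for the replicate, lines joining the arrays of a mouse, and bars for mean and SD (n = 3). In the left panel mice 1 and 2 of both genotypes are higher with calcitriol and mouse 3 is not, and in the right panel 1 array, wild type with vehicle replicate 2, stands apart at -3.47.

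Of the coactivators, Ncoa1 (SRC-1), the founding p160 protein, was measured by 3 probes that moved together, with r between 0.91 and 0.97 over the 12 arrays. Its brightest probe, A_55_P2130975, had levels of 1.85, 1.28 and 2.07 in knockout with calcitriol, against 1.69, 1.12 and 1.42 in wild type with calcitriol. In vehicle it had 2.05, 1.30 and 1.85 in knockout, against 1.73, 1.10 and 1.54 in wild type. Each knockout mouse was above the wild-type mouse of its number in both treatments. The differences by pair were 0.16, 0.16 and 0.65 with calcitriol and 0.32, 0.20 and 0.31 in vehicle, with means of 0.33 (SE 0.26) and 0.28 (SE 0.26). Neither passed (limma, adjusted p = 1.0 and 0.791, and 0.579 and 0.326 with the block). The second probe, A_66_P130582, was also higher in all 6 pairs, whereas the third, A_66_P126138, was lower in the knockout of replicate 2, by -0.10 in each treatment. Calcitriol made no difference larger than its error, at 0.00 in knockout and -0.05 in wild type (SE 0.26 each).

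The larger split in Ncoa1 was between mice. All 4 arrays of replicate 2 had levels of 1.10 to 1.30, below the 1.42 to 2.07 of the 8 arrays of replicates 1 and 3, and the same held for all 3 probes. On mouse means, with genotype as a term, replicate 2 was lower by -0.57 (SE 0.14, 95% interval -0.90 to -0.25). This contrast was chosen after seeing the data and did not pass (limma, adjusted p = 0.401). limma called 0.0206% of all genes in it, and in 5.56% of genes the 4 arrays did not overlap the other 8. Ncoa1 was the 1 member of 9 whose 4 arrays did not overlap. Replicate 2 mice are labelled a month older. Ddx3y, a Y-linked gene, was at 0.82 to 0.99 on their arrays, which are labelled female, against -7.96 to -6.62 on those of replicates 1 and 3, and replicate 1 is labelled male. Number, age and sex as measured cannot be told apart here.

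**Figure D5:**
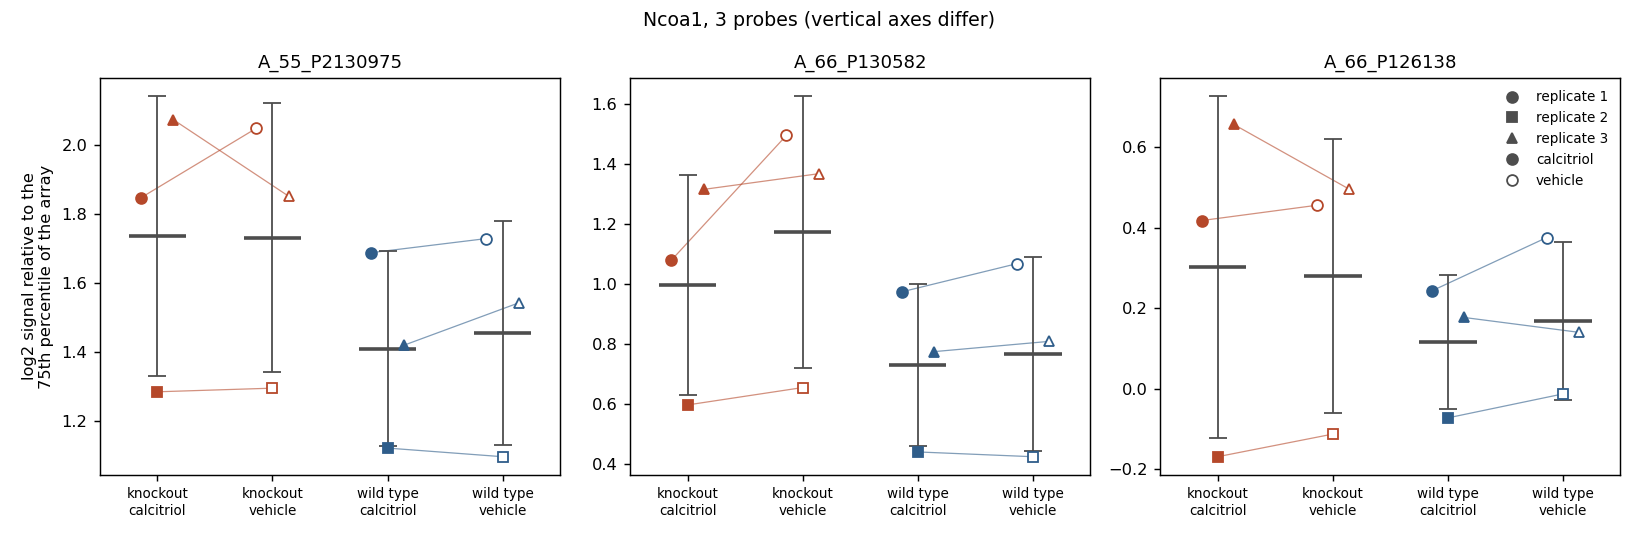
Levels of the 3 Ncoa1 probes on the 12 arrays (vertical axes, log2 signal relative to the 75th percentile of the array, which differ between panels) by group, with symbols for the replicate, lines joining the arrays of a mouse, and bars for mean and SD (n = 3). In each panel replicate 2 is the lowest array of every group.

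Ncoa2 (SRC-2 or TIF2), a p160 coactivator that also serves steroid receptors, had levels of 1.28, 1.60 and 1.60 in knockout with calcitriol, against 1.72, 1.82 and 1.64 with vehicle. In wild type it had 1.31, 1.56 and 1.46 with calcitriol, against 1.43, 1.66 and 1.39 with vehicle. In knockout all 3 mice were lower with calcitriol, by -0.44, -0.22 and -0.04, and the groups did not overlap, as in 7.53% of all genes. The difference of -0.23 (SE 0.14) did not pass (limma, adjusted p = 0.889). In vehicle all 3 pairs were higher in knockout, by 0.30, 0.16 and 0.25, again without passing (0.24, SE 0.14, adjusted p = 0.655).

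Ncoa3 (SRC-3), the p160 coactivator often amplified in breast tumours, hardly varied. Its bright probe, A_55_P2183750, had 2.52, 2.37 and 2.38 in knockout with calcitriol and 2.63, 2.26 and 2.42 in knockout with vehicle. Wild type had 2.45, 2.31 and 2.30 with calcitriol and 2.48, 2.34 and 2.27 with vehicle. Its differences were between -0.01 and 0.07 (SE 0.13) in the 4 comparisons, and the 95% interval in vehicle, knockout minus wild type, was -0.21 to 0.35. The dimmer probe, A_55_P2071868, differed by -0.34 (SE 0.22) in that comparison, and its highest level, -0.87, was that of wild-type mouse 2 in vehicle.

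Med1, the Mediator subunit that docks on nuclear receptors, had 4 probes under 3 accessions. The brightest, A_55_P2092501, had 3.19, 3.06 and 3.16 in knockout with calcitriol and 3.12, 3.14 and 2.97 in knockout with vehicle. Wild type had 3.14, 3.22 and 2.52 with calcitriol and 3.28, 3.16 and 3.01 with vehicle. On this probe a single array, wild type with calcitriol replicate 3, lay below the others. The probes A_51_P324082 (2.65), A_52_P176300 (1.25) and A_55_P2024095 (-1.33) each had their highest wild-type calcitriol level on that array. For the brightest probe the difference between knockout and wild type was 0.17 (SE 0.17) with calcitriol and -0.07 (SE 0.17) in vehicle. Without that array the difference with calcitriol turned to -0.05. The 4 probes correlated at r between -0.53 and 0.61, and none was called in any comparison.

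Ncor1, the corepressor, was read by 3 probes with r between 0.71 and 0.84. The brightest, A_52_P561927, had levels of 1.71, 1.37 and 1.61 in knockout with calcitriol and 1.98, 1.57 and 1.45 in knockout with vehicle. Wild type had 1.63, 1.34 and 1.45 with calcitriol and 1.75, 1.42 and 1.42 with vehicle. Knockout was higher in all 3 pairs of both treatments, by 0.09 (SE 0.17) with calcitriol and 0.13 (SE 0.17) in vehicle, differences smaller than their errors. With calcitriol the other probes were not higher in all 3 pairs. A_55_P2121466 and A_55_P2165969 were each lower in knockout in replicates 1 and 2, with mean differences of 0.04 (SE 0.20) and -0.06 (SE 0.38). In vehicle A_55_P2121466 was higher in knockout in all 3 pairs. A_55_P2165969 was lower there in the knockout of replicate 2 (-1.18 against -0.95). The calcitriol differences were -0.10 in knockout and -0.06 in wild type (SE 0.17 each).

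In wild-type mouse 2 with vehicle the dim probes of Rxra (-2.54), Rxrg (-3.47), Ncoa3 (-0.87) and Med1 (A_55_P2024095, -0.87) each had the highest level of the 12 arrays. The same array had the largest share of probes above background, and the part of one in the other was not tested. None of these probes stands for its gene.

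Other coregulators were not called either. Over the 6 comparisons limma called 0% to 0.206% of all genes without the block and 0% to 0.945% with it. At such shares an absence of calls in short lists says little about the lists. Of 20 other coactivators, all tested, 0 were called in the 6 comparisons with or without the block. Their median difference between knockout and wild type was 0.07 with calcitriol and 0.11 in vehicle, with 16 and 17 of 20 above 0, against 53.8% and 43.6% of all genes. For calcitriol against vehicle in knockout the median was -0.11, with 4 of 20 above 0, against 55.2% of all genes. The same comparison had 5 of 27 other Mediator genes and 5 of 18 other corepressors above 0. By the smallest p, Ncoa6, which encodes a coactivator of many nuclear receptors, was higher in knockout in vehicle (0.31, SE 0.14, limma adjusted p = 0.57). Its levels there were 2.81, 2.76 and 3.21 in knockout and 2.55, 2.56 and 2.74 in wild type. The acetyltransferase gene Kat2b differed by -0.47 (SE 0.24, adjusted p = 0.863) between calcitriol and vehicle in knockout, lower in 2 of 3 mice.

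Of 28 other Mediator genes 27 were tested and 0 called. Med31 differed by 0.37 between knockout and wild type in vehicle (SE 0.13, limma adjusted p = 0.568), and Med16 by 0.26 on mouse means (SE 0.08, 0.946), each higher in 3 of 3 pairs. Of 18 other corepressors, all tested, 0 were called, and their median difference between knockout and wild type was 0.09 with calcitriol and 0.15 in vehicle, with 15 of 18 above 0 in each. The class II histone deacetylase gene Hdac7 differed by 0.42 in vehicle (SE 0.13, adjusted p = 0.568), with 2.96, 2.61 and 2.61 in knockout and 2.35, 2.39 and 2.17 in wild type. Hr (hairless), a corepressor known to bind the vitamin D receptor in skin, differed by -0.54 between calcitriol and vehicle in wild type (SE 0.21, adjusted p = 0.989), lower in 3 of 3 mice.

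Of 15 other receptors that pair with RXR, all tested, 0 were called without the block. With mouse as a block Ppard, a lipid-sensing receptor, rose with calcitriol in wild type. Its levels were 3.98, 3.90 and 3.80 with calcitriol, against 3.58, 3.43 and 3.22 with vehicle. Every wild-type mouse was higher, and the groups did not overlap, as in 9.21% of all genes. The difference was 0.48 (block SE 0.08, limma adjusted p = 0.0469, and 0.603 without the block). In a block over all 12 arrays it did not pass (limma, adjusted p = 0.0722). Within the largest slide, which has a single wild-type vehicle array, it was 0.67. In knockout Ppard had 3.47, 3.36 and 3.42 with calcitriol and 3.59, 3.29 and 3.14 with vehicle, and the difference between the effects did not pass (-0.41, adjusted p = 1.0, and 0.532 with the block).

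The vitamin D pathway outside the nucleus, with carriers, uptake receptors and hydroxylases, had 7 of 9 genes tested. Cyp24a1, which degrades calcitriol, is a known target of the receptor. No knockout array had it above background, and its levels were 5.81, 6.12 and 6.67 in wild type with calcitriol. In calcitriol it was at least 3107-fold lower in knockout than in wild type (limma, adjusted p = 5.16e-06). Within wild type it was at least 1457-fold higher with calcitriol than with vehicle (limma, adjusted p = 1.75e-05), where 1 of 3 vehicle arrays was above background. These bounds set the dim group at the lowest signal above background on each array, or at its own signal where that was higher.

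Cubn (cubilin), an uptake receptor for the vitamin D binding protein, had levels of 1.89, 0.61 and 1.05 in knockout with calcitriol and 1.98, 0.48 and 1.13 in knockout with vehicle. In wild type it had 3.71, 2.46 and 2.68 with calcitriol, against 2.21, 0.68 and 0.77 with vehicle. Calcitriol against vehicle was thus -0.01 on average in knockout, and 1.50, 1.78 and 1.91 in the wild-type mice. Mean levels with calcitriol were 1.18 ± 0.65 in knockout and 2.95 ± 0.67 in wild type (SD, n = 3), while mice of 1 number stood high or low together. Without the block limma did not call the difference in wild type (1.73, SE 0.51, adjusted p = 0.639). With it the call was made (block SE 0.10, adjusted p = 0.000224), and the difference between the effects was called too (-1.74, block SE 0.14, adjusted p = 0.00384). In a block over all arrays the call in wild type ended without replicate 2 (1.71, adjusted p = 0.0695), and with slide as a block it was 1.89 (1.0).

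The 5 named genes whose levels followed Vdr most closely over the 12 arrays were Sapcd1 (r = 0.90), Spats2 (0.89), Pla2g1b (0.87), Rpap3 (0.87) and Pdx1 (0.87). Spats2 and Rpap3 lie on chromosome 15, as Vdr does, Sapcd1 on chromosome 17, and Pla2g1b and Pdx1 on chromosome 5. The levels of Vdr itself separate by genotype. Within genotypes r was 0.37 for Sapcd1, 0.64 for Spats2, 0.65 for Rpap3 and 0.53 for Pdx1 over the 6 knockout arrays, and 0.92, 0.92, 0.37 and 0.36 for the same genes over the 6 wild-type arrays. Pla2g1b was above background on 0 of 6 knockout arrays and 5 of 6 wild-type arrays, so no r within knockout is given for it. Rpap3 had a mean level of 3.06 in knockout and 3.39 in wild type, without overlap (highest knockout 3.15, lowest wild type 3.26). Sapcd1 (highest knockout -3.50, lowest wild type -3.46) and Pdx1 (-4.12 and -3.92) did not overlap either, whereas Spats2 and Pla2g1b did. Such a separation was seen for 0.4% of all genes tested, and these genes were picked for following Vdr, which itself separates. Among the members r with Vdr was between -0.52 (Ncoa3) and 0.04 (Rxrg). These likenesses describe the 12 arrays, which share mice and slides.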

How the data were processed

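The deposited files are scanner output of 12 one-colour Agilent arrays. Spots were read with Agilent Feature Extraction 11.5.1.1, per the file headers, and the deposited intensity is linear, background-subtracted and not normalized between arrays, as far as the file headers say. The probe annotation is on mm9, per the file headers. Precision is limited by the number of arrays.

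Here control spots (3671 per array) and outlier spots were left out, and spots of 1 probe averaged. The log2 of the processed intensity minus the 75th percentile of the array gave the level. Accessions were matched to symbols through RefSeq (GRCm38.p6) for 28026 of 55681 probes. After 163 probes with missing values were dropped, 33392 of 55518 passed the filter (well above background throughout at least 1 group of 3 arrays), and the brightest probe stood for each of 24229 genes. limma 3.58.1 (R 4.3.3) fitted the 4 group means over 12 arrays, or the 6 mouse means, with a variance trend and 2-sided tests, and p-values were adjusted by Benjamini-Hochberg over all genes with a threshold of 0.05.

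Both treatments of a replicate number share a mouse, per the labels, and deviations from the group means correlated at 0.57, 0.32 and 0.32 (wild type) and 0.25, 0.59 and 0.10 (knockout). Between genotypes, same-numbered arrays correlated at 0.41, 0.40 and 0.34 with calcitriol and 0.64, 0.14 and 0.40 in vehicle, so a second fit had the mouse, or the number, as a block over the arrays compared. Other settings were the slide as a block, the largest slide alone, normexp (offset 50, on the median signal, as no mean signal was used here), the median or quantiles as scale, no filter, other probe rules, no variance trend, array weights, the 2 groups alone, and leaving out arrays or replicates. The members and lists were chosen with earlier results of these data known. Named genes outside the members are those called in each list, or else the 2 of smallest p, and the 5 most like Vdr.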

Additional observations from a re-analysis of the deposited data

Results flagged for a closer look

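For Ncoa6 the effect of calcitriol ran in opposite directions in the 2 genotypes: it was lower with calcitriol in all 3 knockout mice and higher in all 3 wild-type mice. Its mean level was 2.74 with calcitriol and 2.92 with vehicle in knockout, and 2.80 with calcitriol and 2.61 with vehicle in wild type. Ncoa6 was named for its difference between genotypes in vehicle, and both effects subtract those same vehicle levels. The opposite signs are therefore not independent of that choice. Neither effect was called, and the share of all genes with such opposite signs was not counted. The difference between the effects, knockout minus wild type, was -0.37 and did not pass (limma, adjusted p = 1.0, and 0.517 with mouse as a block).

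For Cyp24a1 the difference between the effects of calcitriol, knockout minus wild type, passed (limma, adjusted p = 0.00116). Its fitted size on the log2 scale, -11.64, rests on signals not above background in knockout and is no measure of size.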

How the results depend on the processing

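With the replicate block, the count of members called was 1, Vdr, in vehicle between genotypes (-1.59, adjusted p = 0.0317, and 0.0137 over all 12 arrays) and on mouse means (-1.35, 0.00409). On mouse means it stayed 1 without replicate 1, 2 or 3, with Vdr at -1.28, -1.38 and -1.39 and adjusted p of 0.0469, 0.0119 and 1.22e-08, each on 2 pairs with 1 residual degree of freedom per gene. In vehicle the 12-array block called 0 members without replicate 1, 2 or 3 (Vdr at 0.193, 0.827 and 0.297). With calcitriol between genotypes the count was 1, Vdr, in the block over 12 arrays (-1.11, 0.00789), with array weights (-1.09, 0.0334) and in that block without replicate 3 (-1.26, 0.0152). Without replicate 3 that block called 205 genes in this comparison, 0.846% of all tested. For the block over 12 arrays the share of all genes called in this comparison is not given here, so the Vdr call cannot be set against it. Without replicate 3 in the 12-array block 1 member, Rxrg, was called for calcitriol against vehicle in each genotype. Vdr, calcitriol against vehicle in knockout, was -0.33 to 0.084 when single arrays or replicates were left out, -0.57 within the largest slide, -0.36 with slide as a block and -0.39 under scaling to the median, and changed sign without the calcitriol array of mouse 1 (0.084), the vehicle array of mouse 3 (0.023) or replicate 2 (0.0019, with or without the block). Its difference between the effects was -0.31 under scaling to the median, where the median of all genes was -0.74. The block changed no other call of a member. Among 1416 values of the other 8 members under the alternatives 160 changed sign and 2 were called, both of Rxrg without replicate 3 and with the block, where 3093 genes in knockout and 2243 in wild type were called in all. Without replicate 3 and without the block, 128 genes were called for calcitriol in knockout, against 0 with all arrays.

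Over all genes the calls without the block and with it were 50 and 122 (knockout against wild type with calcitriol), 38 and 229 (calcitriol in wild type), 7 and 57 (difference between the effects) and 4 and 49 (mouse means). In vehicle between genotypes 1 was called in both, and 4 in the 12-array block. With slide as a block 8 were called for calcitriol in wild type and 1 for the difference between the effects, and with array weights 119 between genotypes with calcitriol and 95 for calcitriol in wild type. Scaling to the median gave 76, 27 and 18 for calcitriol in wild type, the difference between the effects and the mouse means. Signal near background limits the second Rxrg probe, and Cyp24a1 and Pla2g1b in knockout.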
